A study of Mus musculus with 38 samples.

Results

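Cell cycle and proliferation genes were followed in mouse kidney through 3 experiments with recombinant human FGF23. The group was a fixed list of 45 gene symbols, picked by gene name, and all 45 were present among the 55487 genes of the raw count table. They were sorted by role into 9 sets, from genes of entry into S phase to genes of cytokinesis. In the anti-GBM experiment, 14 male C57BL/6JRj mice, 10 weeks old, formed 4 groups: healthy mice given vehicle (n = 4), anti-GBM mice given vehicle (n = 4), healthy mice given FGF23 (n = 3) and anti-GBM mice given FGF23 (n = 3). Anti-GBM glomerulonephritis, an immune attack on the glomerular basement membrane, was induced by immunization with sheep IgG in Freund's complete adjuvant followed by sheep nephrotoxic serum, and the healthy mice received PBS in its place. Vehicle (PBS with BSA) or 1 µg FGF23 was injected intravenously on each of 6 days, beginning 1 day after the serum, and the animals were killed 24 h after their last dose. In the Adriamycin experiment, 16 female BALB/c mice, 10 weeks old, formed 4 groups of 4, healthy or with nephropathy from a single intravenous injection of Adriamycin (doxorubicin, a drug that injures podocytes and damages DNA), each given 1 injection of vehicle or of 1 µg FGF23 24 h before sampling. In the slice experiment, precision-cut kidney slices (PCKS) from male DBA/2J mice, 23 weeks old, with nephropathy from a diet of 0.2% adenine for 15 weeks were cultured with vehicle (n = 4) or FGF23 (n = 4). There were no slices from healthy kidneys. The sample labels give 1 h for the slice treatment and the study's text 24 h, so the duration is uncertain.

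Each library came from bulk tissue, a fragment of whole kidney or slices, and held between 11186925 and 27583911 counted reads (13704248 to 23630210 for anti-GBM and its controls, 15665050 to 27583911 for Adriamycin and its controls, 11186925 to 16254987 for slices). Levels are given as CPM (read counts divided by library depth, with TMM factors), log2 fold changes are followed by their standard error, and a gene was called at a Benjamini-Hochberg adjusted p below 0.05 in edgeR's quasi-likelihood test over all genes of the experiment. The kidney identity of the whole-organ libraries was clear from 6 proximal tubule markers, whose summed level was 6160 to 14300 CPM, whereas in slices it was 265 to 653 CPM. The 5 markers of injured tubule (among them Havcr1) summed to 494 to 919 CPM in healthy C57BL/6 mice, 3780 to 16200 CPM in anti-GBM mice, 1380 to 1700 CPM in healthy BALB/c mice, 1140 to 1580 CPM in Adriamycin mice and 6460 to 13800 CPM in slices. Most of each sum was Spp1 (osteopontin), which alone was at 488 to 914 CPM in healthy C57BL/6 mice and 3570 to 15500 CPM in anti-GBM mice, while Havcr1 was at 0.799 to 7.89 CPM and 154 to 476 CPM.

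Most cells of the adult kidney are quiescent, and tubular cells re-enter the cell cycle after injury. Cyclin E with CDK2 and the transcription factor E2F1 start S phase, the MCM helicase opens the replication origins, and PCNA holds the DNA polymerase on its template. Cyclin A and cyclin B with CDK1 then drive the cell into mitosis, and the transcription factor FOXM1 acts on many genes of that stage. The checkpoint kinases hold anaphase back until chromosomes are attached, the anaphase-promoting complex ends mitosis by marking cyclin B for degradation, and the central spindle guides cytokinesis.

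Cell cycle genes were higher in kidneys of anti-GBM mice than in healthy kidneys, and the largest log2 fold changes were those of mitotic genes. Differences between the role sets were not tested. Averaged over vehicle-treated and FGF23-treated mice (7 against 7), 41 of the 45 members rose, none fell, and all 45 had a positive log2 fold change. The 41 include Ttk, which had enough reads to be tested only because of the anti-GBM mice. The share of all 15859 genes tested that was called higher was 23.6%, and 24.7% were called lower. The median log2 fold change of the members was 1.63, a 3.10-fold difference, against -0.02 for all genes, and the members ranged from 0.23 (Mcm6) to 2.47 (Ube2c). In bulk kidney, a difference in the number of cells of a type and one in RNA per cell cannot be told apart. Among vehicle-treated mice alone 37 members were called higher (19.4% of all genes), and among FGF23-treated mice alone 30 were (14.5% of all genes). Members that lost their call in FGF23-treated mice alone included E2f1 (adjusted p = 0.114), Pcna (0.15), Cdca3 (0.0893) and Cdca8 (0.0633). In 27 members the lowest of the 7 anti-GBM mice lay above the highest of the 7 healthy mice, which held for 10.4% of all genes. These 27 included Mki67, Top2a, Cdk1, Ccnb1, Aurkb, Plk1, Ube2c, Pcna and Mcm3.

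**Figure D1:**
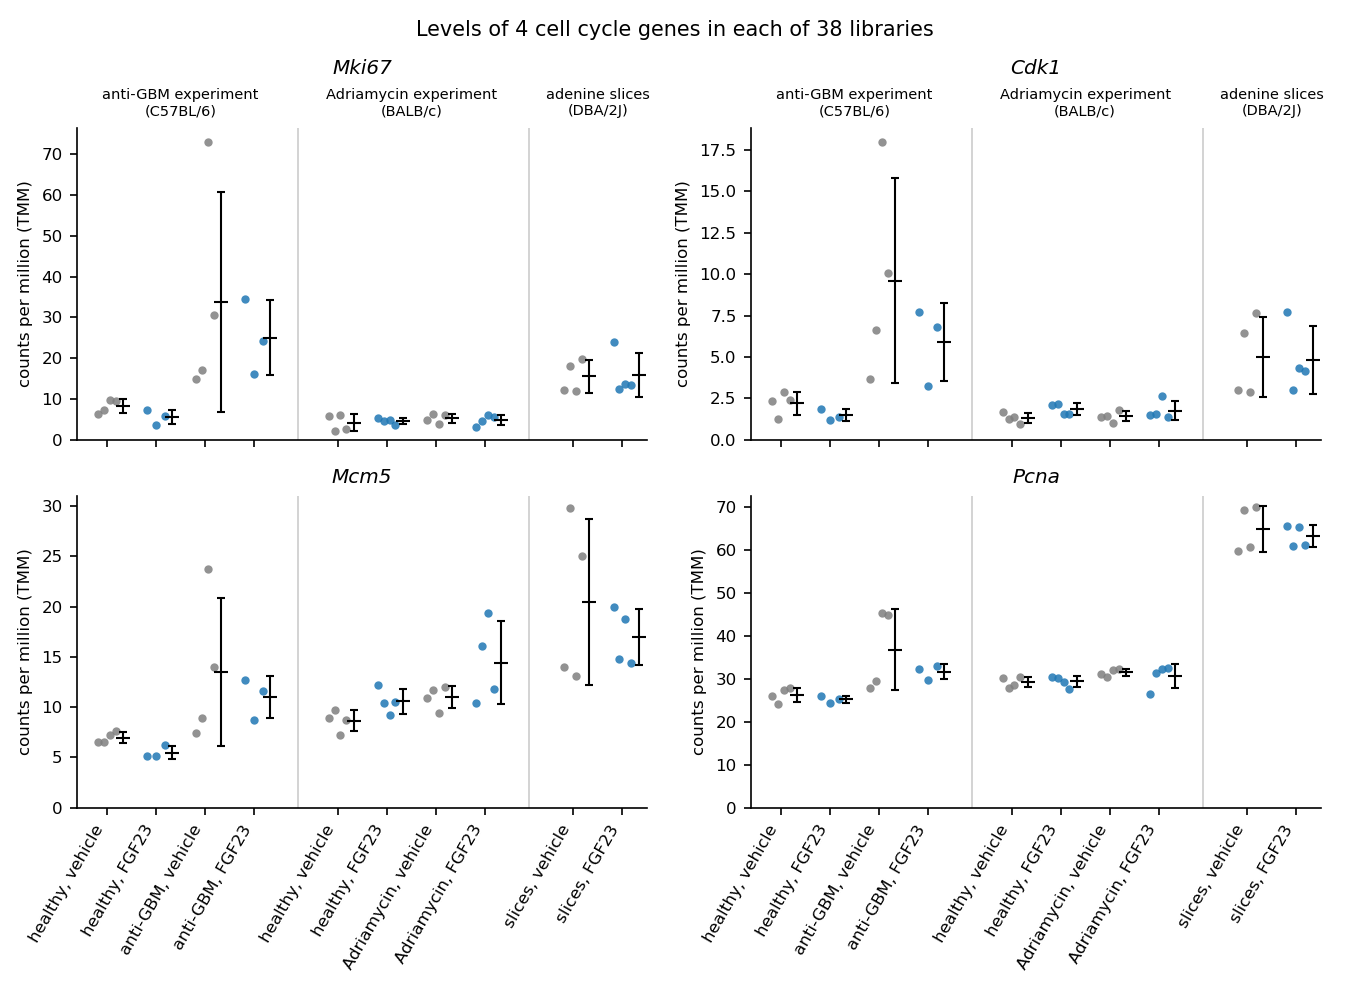
Level of Mki67, Cdk1, Mcm5 and Pcna in every library (y axis: CPM after TMM scaling, from 0) in the 10 groups (x axis), with each group's mean and SD beside its points, vehicle in grey and FGF23 in blue. The anti-GBM mice stand above the healthy C57BL/6 mice, except NTS5 in Mcm5, with mouse NTS7 highest (Mki67 73.0 CPM), whereas healthy and Adriamycin mice overlap for Mki67 (2.10 to 5.93 CPM and 3.22 to 6.38 CPM).

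Promoters are shown for 4 called mitotic members, among them Ube2c with the largest log2 fold change, and for the helicase genes Mcm5, which was called, and Mcm6, which was not. The RefSeq promoter table (GRCm38, 250 bases before to 50 bases after the start) held 38 of the 45 members and 32851 promoters in all. They were searched on both strands for CCAAT (the box bound by NF-Y), for TTTGAA, the core of the cell cycle genes homology region (CHR) bound by the DREAM and MuvB complexes, for the variant of this core, TTCGAA, and for 3 sites of the E2F type, of which the first was TTTCGCG, the second with G in the middle TTTGGCG, and the third with a run of C, TTCCCGC. The NF-Y box was found in 30 of 38 members (78.9%) and in 37.4% of all promoters. A CHR core of either form was found in 24 members (63.2%) and in 19.2% of all promoters. An E2F-type site was found in 8 members (21.1%) and in 6.72% of all promoters. The sequences below are the bases before the start, 5′ to 3′ on the strand of the gene, with every match on either strand in capitals, so that ATTGG marks an NF-Y box, and TTCAAA a CHR core, on the other strand. Adjoining capitals can be overlapping matches, as of the first and the second E2F-type site in Mcm5 and in Mcm6. Ube2c (chr2:164769679-164769897, +), Top2a (chr11:99024190-99024439, -), Mki67 (chr7:135716380-135716629, -) and Cdk1 (chr10:69352939-69353162, -) stand for the mitotic genes, and Mcm5 (chr8:75109259-75109508, +) and Mcm6 (chr1:128359706-128359955, -) for the helicase genes.
Ube2c: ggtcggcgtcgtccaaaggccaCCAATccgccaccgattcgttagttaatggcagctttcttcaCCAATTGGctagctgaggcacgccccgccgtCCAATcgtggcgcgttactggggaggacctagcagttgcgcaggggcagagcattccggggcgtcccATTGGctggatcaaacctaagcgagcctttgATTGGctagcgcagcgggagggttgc
Top2a: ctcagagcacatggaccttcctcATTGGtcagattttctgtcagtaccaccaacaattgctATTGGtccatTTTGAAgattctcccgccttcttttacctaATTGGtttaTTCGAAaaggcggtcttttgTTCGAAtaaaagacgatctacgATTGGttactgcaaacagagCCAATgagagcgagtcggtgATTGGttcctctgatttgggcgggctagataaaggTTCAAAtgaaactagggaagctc
Mki67: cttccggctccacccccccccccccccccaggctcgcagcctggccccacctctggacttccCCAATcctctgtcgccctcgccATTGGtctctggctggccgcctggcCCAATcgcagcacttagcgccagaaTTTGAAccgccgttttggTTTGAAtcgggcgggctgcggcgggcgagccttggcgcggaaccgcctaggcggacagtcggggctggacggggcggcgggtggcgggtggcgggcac
Cdk1: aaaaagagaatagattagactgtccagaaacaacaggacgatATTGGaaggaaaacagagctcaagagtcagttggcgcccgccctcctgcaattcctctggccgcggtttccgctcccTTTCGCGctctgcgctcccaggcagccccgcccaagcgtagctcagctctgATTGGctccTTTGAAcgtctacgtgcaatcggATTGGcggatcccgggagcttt
Mcm5: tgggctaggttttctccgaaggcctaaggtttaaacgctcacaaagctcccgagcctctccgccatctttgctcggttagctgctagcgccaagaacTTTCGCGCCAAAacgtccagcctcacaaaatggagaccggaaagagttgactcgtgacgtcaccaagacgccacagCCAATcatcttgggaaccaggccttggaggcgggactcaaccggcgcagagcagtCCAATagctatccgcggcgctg
Mcm6: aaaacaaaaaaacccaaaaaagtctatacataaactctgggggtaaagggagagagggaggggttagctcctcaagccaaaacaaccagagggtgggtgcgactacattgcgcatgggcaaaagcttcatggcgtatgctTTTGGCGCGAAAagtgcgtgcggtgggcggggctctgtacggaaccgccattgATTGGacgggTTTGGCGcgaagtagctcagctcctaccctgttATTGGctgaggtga
Of the printed mitotic promoters, Top2a, Mki67 and Cdk1 held the core TTTGAA, which the window of Ube2c also held once, outside the bases printed. The stretch of Ube2c shown had the NF-Y box on both strands. Of the 5 helicase promoters listed, 4 held an E2F-type site and all 5 held CCAAT. A CHR core was found in all 5 promoters of the spindle checkpoint set, in all 5 that were listed of the cytokinesis set and in 0 of the 4 DNA synthesis promoters. The 2 listed promoters of S phase entry, those of Ccne1 and E2f1, held none of the 6 motifs in this window. A match is a description of the sequence and no measurement of binding.

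Among genes of S phase entry, Ccne1, encoding cyclin E1, rose by 1.17 ± 0.28 on the log2 scale (adjusted p = 0.00363) and E2f1 by 0.66 ± 0.19 (adjusted p = 0.0095). Ccne1 stood at 1.19, 0.855, 0.899 and 0.795 CPM in healthy vehicle mice, 0.971, 1.87, 3.54 and 1.44 CPM in anti-GBM vehicle mice, 0.610, 0.481 and 0.976 CPM in healthy FGF23 mice and 2.11, 1.40 and 1.39 CPM in anti-GBM FGF23 mice. Only anti-GBM mouse NTS5, at 0.971 CPM, lay within the healthy range. Ccne2, which encodes the other cyclin E, had a log2 fold change of 0.64 ± 0.33 that was not called (adjusted p = 0.123). E2f1 was at 4.02, 5.04, 5.54 and 5.17 CPM in healthy vehicle mice and 3.99, 7.27, 11.2 and 9.43 CPM in anti-GBM vehicle mice, again with NTS5 at the healthy level.

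The 6 MCM subunits, which load at origins before S phase, had smaller log2 fold changes than most mitotic genes: 5 of 6 were called, with a median log2 fold change of 0.43. Mcm3 (0.98 ± 0.17, adjusted p = 0.000326) and Mcm5 (0.98 ± 0.22, adjusted p = 0.00193) differed most. Mcm5 was at 6.51, 6.56, 7.19 and 7.62 CPM in healthy vehicle mice, 7.46, 8.88, 23.7 and 14 CPM in anti-GBM vehicle mice, 5.16, 5.10 and 6.2 CPM in healthy FGF23 mice and 12.7, 8.71 and 11.6 CPM in anti-GBM FGF23 mice. The overlap between health and disease came from NTS5, just under the highest healthy mouse. Mcm6 was at 25.1, 27.3, 22.6 and 29 CPM in healthy vehicle mice and 26.3, 30.1, 42.3 and 29.9 CPM in anti-GBM vehicle mice, ranges that overlapped, and its log2 fold change of 0.23 ± 0.10 was not called (adjusted p = 0.0780). Mcm2 (0.45 ± 0.12), Mcm4 (0.40 ± 0.14) and Mcm7 (0.32 ± 0.10) were called higher, with healthy ranges of 12.9 to 17.5, 9.53 to 12.3 and 15.8 to 20.4 CPM that met the anti-GBM ranges of 16.4 to 30.4, 10.2 to 21.3 and 19.2 to 31.5 CPM. Without NTS4, NTS5, NTS8 or NTS14 Mcm6 was called as well, at 0.29 to 0.31.

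Of the 4 genes of DNA synthesis, 3 rose. Rrm2, the S phase subunit of ribonucleotide reductase, rose by 1.66 ± 0.28 (adjusted p = 0.000232), from 5.89, 5.94, 7.39 and 6.56 CPM in healthy vehicle mice to 9.30, 12.1, 39.4 and 25.6 CPM in anti-GBM vehicle mice, with 5.96, 4.14 and 3.69 CPM in healthy and 14.4, 11.3 and 15.7 CPM in anti-GBM mice given FGF23. Its partner Rrm1 rose by 0.53 ± 0.12. Neither gene had an anti-GBM mouse within the healthy range. Pcna rose by 0.40 ± 0.11 (adjusted p = 0.0059): it was at 26, 24.1, 27.3 and 27.8 CPM in healthy vehicle mice, 27.8, 29.4, 45.2 and 44.8 CPM in anti-GBM vehicle mice, 26, 24.4 and 25.3 CPM in healthy FGF23 mice and 32.3, 29.7 and 32.9 CPM in anti-GBM FGF23 mice. Its difference was small, 1.32-fold, but every anti-GBM mouse was above every healthy one, by little at the closest. Tyms, encoding thymidylate synthase, had a log2 fold change of 0.24 ± 0.11 and was not called (adjusted p = 0.0698), although it was without NTS3, NTS4, NTS5 or NTS9 (0.29 to 0.34).

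All 5 genes of the cyclin A/B and CDK1 set were called higher, within a narrow range of log2 fold changes from 1.82 ± 0.30 for Foxm1 to 2.08 ± 0.39 for Ccnb1 (cyclin B1). Cdk1, the kinase that starts mitosis, was 4.15-fold higher (log2 fold change 2.05 ± 0.34, adjusted p = 0.000215). It was at 2.32, 1.24, 2.9 and 2.39 CPM in healthy vehicle mice, 3.68, 6.63, 18 and 10.1 CPM in anti-GBM vehicle mice, 1.88, 1.20 and 1.39 CPM in healthy FGF23 mice and 7.69, 3.25 and 6.83 CPM in anti-GBM FGF23 mice. No anti-GBM mouse reached down to the healthy range, although the 4 anti-GBM vehicle mice themselves spanned from 3.68 to 18 CPM. Ccnb1 was lower in level, at 0.962, 0.665, 0.849 and 0.928 CPM in healthy vehicle mice and 1.12, 2.12, 8.22 and 5.47 CPM in anti-GBM vehicle mice. Ccna2 (cyclin A2, log2 fold change 2.00 ± 0.35) spanned 1.74 to 3.98 CPM over the 7 healthy and 3.88 to 24.1 CPM over the 7 anti-GBM mice, which overlapped at the edge. Ccnb2 (cyclin B2, 1.96 ± 0.36) and Foxm1 did not overlap, at 0.817 to 2.32 against 2.45 to 14.5 CPM and at 1.20 to 3.54 against 3.85 to 15.6 CPM.

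The 4 proliferation markers all rose. Mki67 (ENSMUSG00000031004, chr7:135689784-135716361, minus strand, GRCm38), which encodes the Ki-67 protein of dividing cells, was 4.30-fold higher (log2 fold change 2.10 ± 0.34, adjusted p = 0.000189). Its level was 6.28, 7.32, 9.83 and 9.41 CPM in healthy vehicle mice, 15, 17, 73.0 and 30.5 CPM in anti-GBM vehicle mice, 7.23, 3.70 and 5.85 CPM in healthy FGF23 mice and 34.6, 16.2 and 24.2 CPM in anti-GBM FGF23 mice. The group means were 8.21 ± 1.69 (SD, n = 4), 33.9 ± 27 (n = 4), 5.59 ± 1.78 (n = 3) and 25.0 ± 9.24 CPM (n = 3), so the spread was wide in disease and narrow in health. Top2a, encoding the topoisomerase that untangles replicated chromosomes, followed with a log2 fold change of 2.08 ± 0.33 (adjusted p = 0.000160) and stood at 11, 14.3, 51.0 and 25.1 CPM in anti-GBM vehicle mice against 5.83, 5.42, 9.09 and 7.62 CPM in healthy ones. Melk, a mitotic kinase gene, had the largest value of the set (2.26 ± 0.37, adjusted p = 0.000200) and Cdca3, a gene of mitotic entry, the smallest (1.24 ± 0.28, adjusted p = 0.00254).

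All 17 genes of the mitotic kinase, spindle checkpoint and spindle sets were called higher. Ttk among them met the count minimum in too few healthy mice, so it passed the filter only through the anti-GBM mice, where it was high. Aurkb, the kinase of the chromosomal passenger complex that corrects chromosome attachment, was among the 3 members with the smallest p (2.18 ± 0.31, adjusted p = 7.08e-05), at 0.679, 0.760, 1.45 and 1.26 CPM in healthy vehicle mice and 2.50, 2.45, 8.17 and 4.10 CPM in anti-GBM vehicle mice. Its partners Birc5 (survivin) and Cdca8 (borealin) rose by 1.55 and 1.23 ± 0.31, the latter being the smallest of its set. Ube2c, the ubiquitin-conjugating enzyme of the anaphase-promoting complex, had the largest log2 fold change of all members, 2.47 ± 0.46 (5.54-fold, adjusted p = 0.000528). It was at 1.64, 0.855, 1.45 and 1.19 CPM in healthy vehicle mice, 1.79, 3.60, 14.7 and 10.6 CPM in anti-GBM vehicle mice, 1.5, 0.433 and 0.906 CPM in healthy FGF23 mice and 6.77, 2.35 and 5.64 CPM in anti-GBM FGF23 mice. Every anti-GBM mouse was above every healthy mouse, but NTS5 by little. Of the checkpoint genes, Bub1b (encoding BUBR1) had the smallest value, 1.43 ± 0.25 (adjusted p = 0.000300). Among spindle and kinetochore genes, Cenpf rose by 2.14 ± 0.37 (adjusted p = 0.000293) and the kinesin gene Cenpe by 0.70 ± 0.24 (adjusted p = 0.0279). The call of Cenpe was lost without NTS10 or without NTS13, and with adjustment over 4 comparisons combined (adjusted p = 0.0958). It was also lost in vehicle-treated mice alone (adjusted p = 0.0989) and in FGF23-treated mice alone (adjusted p = 0.171).

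The remaining genes of these 3 sets had similar ranges, given here over 7 healthy and 7 anti-GBM mice. Plk1, the polo-like kinase of mitotic entry, was at 0.986 to 1.75 CPM in health and 1.84 to 10.8 CPM in disease (2.00 ± 0.36). Tpx2, which activates Aurora A at the spindle, was at 1.25 to 3.19 and 3.63 to 19.1 CPM (2.04 ± 0.34), while Aurka itself overlapped at 0.529 to 1.60 and 1.38 to 7.86 CPM (1.63 ± 0.37). In this set Aurka and Cdca8 had a diseased mouse in the healthy range, and the other 4 genes did not. Bub1, a checkpoint kinase gene, rose by 2.16 ± 0.43 from 0.144 to 0.749 CPM in health to 0.836 to 5.09 CPM in disease. Cdc20, the activator of the anaphase-promoting complex, was at 1.30 to 3.64 and 2.81 to 15.3 CPM (1.53 ± 0.35), and Ttk at 0.0962 to 0.610 and 0.307 to 3.03 CPM (1.65 ± 0.48, adjusted p = 0.0113). These latter ranges overlapped, with NTS5 the lowest anti-GBM mouse in both. Of the spindle motors, Kif2c was at 0.529 to 0.855 and 1.16 to 6.42 CPM (2.07 ± 0.38) and Kif11, which pushes the spindle poles apart, at 2.12 to 3.98 and 4.18 to 15.6 CPM (1.30 ± 0.29), without overlap. Hmmr (1.77 ± 0.37) and Nusap1 (0.96 ± 0.20), which bind spindle microtubules, overlapped at 0.577 to 3.31 against 2.56 to 15.3 CPM and 3.61 to 6.99 against 5.35 to 17.3 CPM.

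In the cytokinesis set 5 of 6 genes rose, and it held the member with the smallest p. Kif23, a kinesin of the centralspindlin complex, rose by 1.71 ± 0.23 (3.28-fold, adjusted p = 3.86e-05), from 2.49, 2.57, 3.10 and 2.19 CPM in healthy vehicle mice to 5.11, 5.86, 13.7 and 10.8 CPM in anti-GBM vehicle mice, and from 2.30, 1.97 and 2.86 CPM to 9.56, 5.35 and 7.38 CPM in mice given FGF23. The groups were apart in both treatments. Prc1, which bundles the microtubules of the central spindle, had the largest value of the set (2.31 ± 0.37, adjusted p = 0.000159), and Anln, encoding the scaffold anillin of the contractile ring, rose by 1.90 ± 0.30 (adjusted p = 0.000141). Racgap1, the partner of Kif23 in centralspindlin, rose by 1.65 ± 0.27 and was at 1.97 to 4.24 CPM in health and 5.78 to 19.8 CPM in disease. Kif20a, a kinesin of the midzone, was at 1.59 to 3.05 and 3.63 to 18.1 CPM (1.59 ± 0.32). Ect2, the exchange factor that activates RhoA at the cleavage site, was not called (0.29 ± 0.29, adjusted p = 0.444). Unlike its set, it was spread widely in health, at 9.39, 8.74, 4.54 and 5.23 CPM in healthy vehicle mice and 2.81, 6.24, 12.3 and 6.48 CPM in anti-GBM vehicle mice, so that the lowest of all 14 mice was a diseased one.

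**Figure D2:**
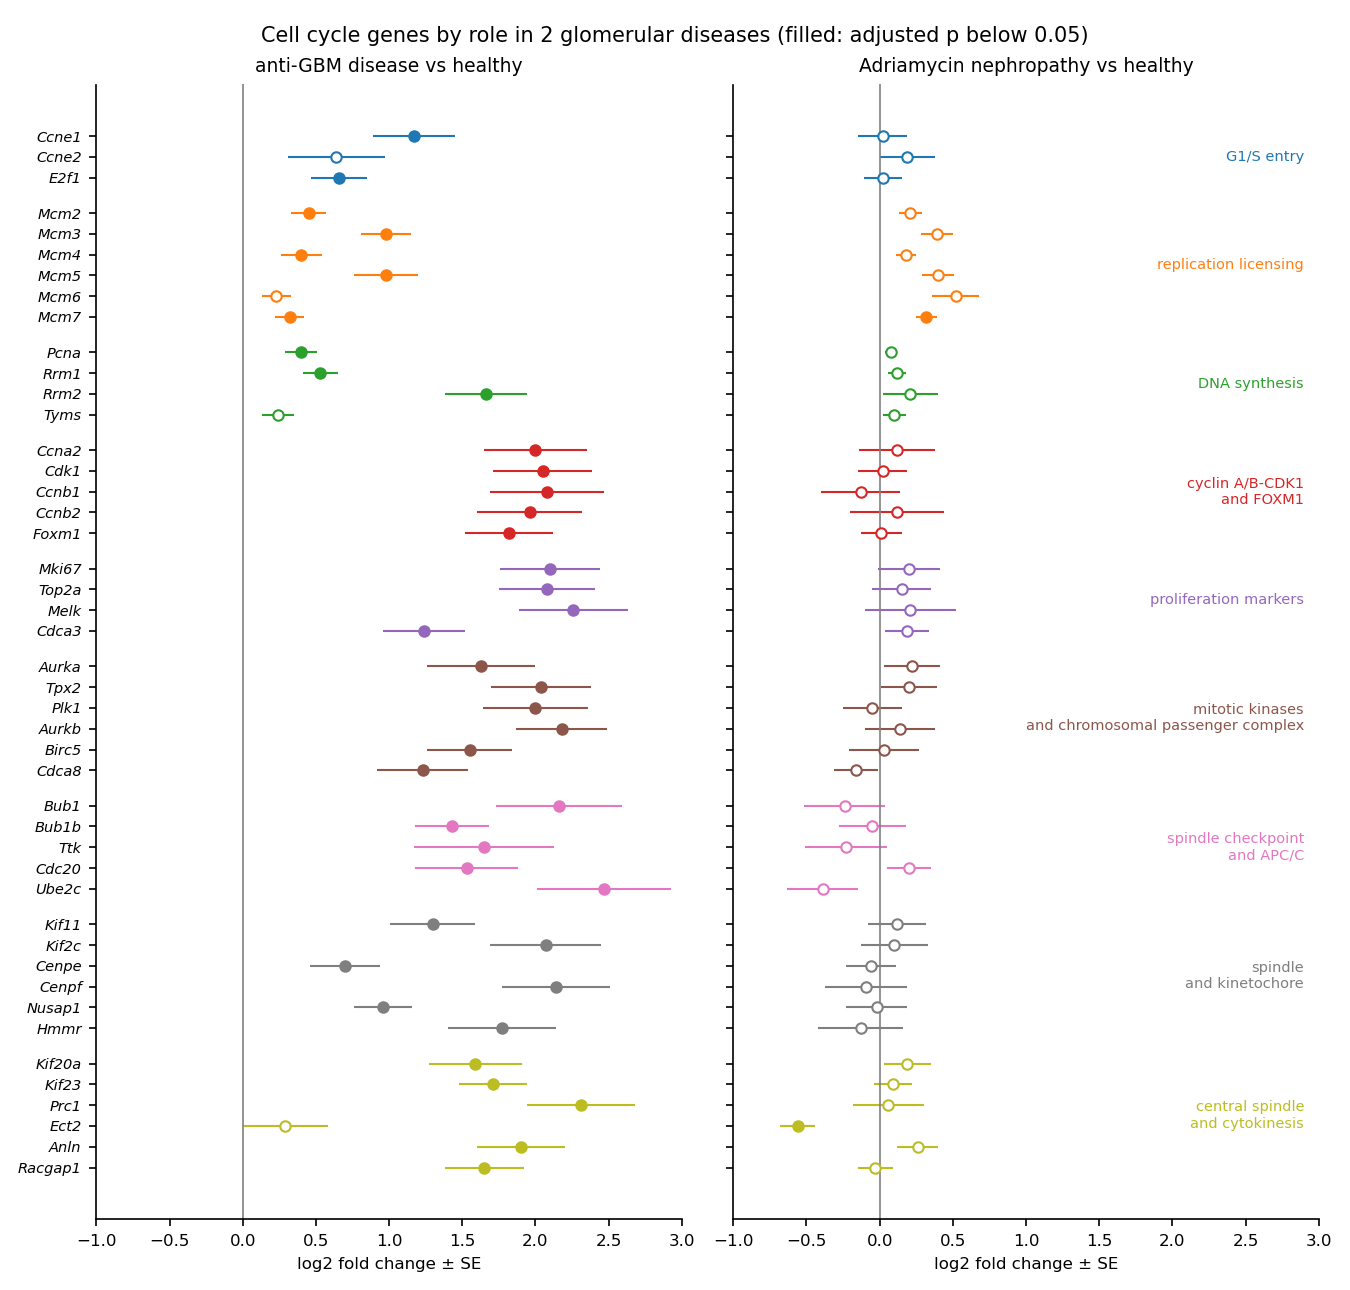
Log2 fold change between diseased and healthy kidneys with its standard error (x axis) for the 45 members ordered by role (y axis), in the anti-GBM experiment (left) and the Adriamycin experiment (right), with filled points for members called at an adjusted p below 0.05. In the anti-GBM experiment the mitotic sets sit mostly between 1 and 2.5 and the MCM genes between 0.23 and 0.98, while in the Adriamycin experiment only Mcm7 (0.32) and Ect2 (-0.56) are filled.

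The diseased mice differed from one another, and the members differed together. The mean log2 CPM over the 45 members was 2.05, 2.46, 3.93 and 3.21 in anti-GBM vehicle mice NTS5, NTS6, NTS7 and NTS8, and 3.07, 2.35 and 2.73 in anti-GBM FGF23 mice NTS13, NTS14 and NTS16, against 1.59 to 1.87 in healthy vehicle mice and 1.01 to 1.59 in healthy FGF23 mice. NTS7 had the highest level of its group in 45 of 45 members and NTS5 the lowest in 40. NTS13 was highest in 38 members among anti-GBM FGF23 mice and NTS14 lowest in 39. Over the 14 libraries, the deviations of the members from their group means had a median pairwise correlation of 0.83 across 990 pairs of genes, and of 0.71 without NTS7. These correlations share their libraries and are given without a test. Leaving out NTS7 left the number of members called at 41, with a median log2 fold change of 1.33 and Mki67 at 1.75 ± 0.23 (adjusted p = 4.73e-05).

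Markers of other cell types moved with the members in the disease comparison: all 7 macrophage markers (median log2 fold change 1.99), all 5 markers of injured tubule (6.05), all 5 mesenchymal markers (1.29), all 3 pan-leukocyte markers (1.25) and all 3 neutrophil markers tested (3.05) were called higher, and 5 of 6 proximal tubule markers were called lower (-0.56). The neutrophil markers S100a8 and S100a9 and the injured tubule marker Krt20 were at most at 0.3, 0.766 and 0.422 CPM in healthy mice. They passed the filter on low counts only through the anti-GBM mice, so their calls add little to these counts. The summed level of macrophage markers was 112 to 156 CPM in healthy and 267 to 416 CPM in anti-GBM mice, and that of pan-leukocyte markers 24.4 to 37.8 CPM and 42.3 to 91.7 CPM. Among the 4 anti-GBM vehicle mice NTS5, NTS6, NTS7 and NTS8, the mean log2 CPM of the injured tubule markers was 6.37, 7.19, 8.07 and 7.64, the same order as the members, while that of the macrophage markers was 5.45, 5.60, 4.99 and 4.85, with the highest mouse of the members near the bottom. Of the anti-GBM FGF23 mice, NTS13 was highest in all 5 injured tubule markers, as in the members. NTS14, below NTS16 in the mean of the members, lay above it in Havcr1 (191 against 185 CPM), Lcn2 (54.1 against 52.7 CPM) and Krt20 (27.1 against 19.9 CPM). It lay below NTS16 in Spp1 (4580 against 5720 CPM) and Sox9 (13.3 against 14.9 CPM). The part of these cell types in the members' change was not tested.

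**Figure D3:**
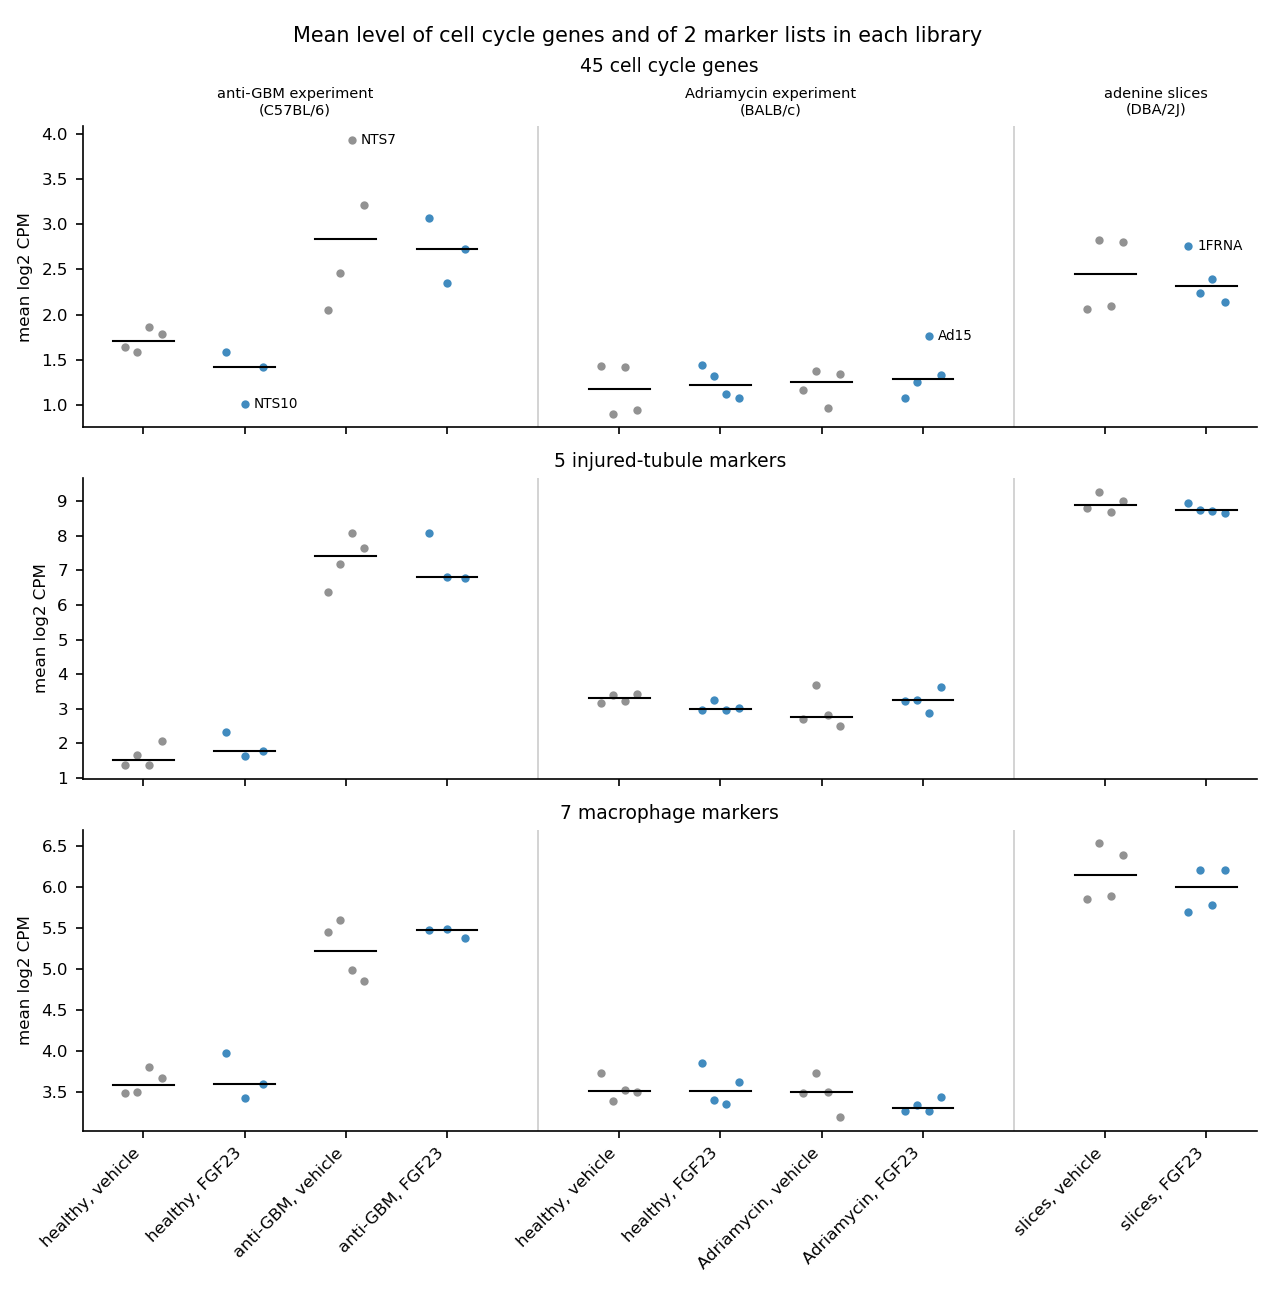
Mean log2 CPM in every library (y axis) over the 45 cell cycle genes, 5 injured tubule markers and 7 macrophage markers (rows), by group (x axis), with a line at each group's median and 4 libraries named. Mouse NTS7 is the highest of its group for the cell cycle genes at 3.93 and for the injured tubule markers at 8.07, and lies at 4.99 for macrophage markers, where NTS8 is lowest at 4.85.

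Of 40 further mitotic genes 31 rose and 0 fell (median log2 fold change 1.65), where 23.6% of all genes rose and 24.7% fell, led by Kif15 (2.06 ± 0.24), a spindle kinesin, and Espl1 (1.80 ± 0.24), encoding separase. Some of the 40 passed the filter only through the anti-GBM mice, such as Kif15 itself, Kif14 and Cdc25c. These were at most at 0.679, 0.53 and 0.449 CPM in healthy mice. How many of the 31 passed in this way is not given here, so that count is a description only. Of 29 further replication genes 13 rose and 2 fell (median 0.33): Clspn (claspin) and Uhrf1 rose by 1.89 and 1.82, and Mcm10, an origin-firing factor gene, fell by 0.44 (-0.32, adjusted p = 0.123, in vehicle-treated mice alone). The difference between these lists was not tested. Among 6 G1 cyclins and kinases, Cdk4 (0.40) and Cdk6 (0.42) rose while Ccnd1, encoding cyclin D1, fell by 0.42 ± 0.11 on the log2 scale (adjusted p = 0.00646) and Ccnd2 by 0.36. Of these, Cdk6 was at 0.17 (adjusted p = 0.477) in vehicle-treated mice alone and lost its call with adjustment over 4 comparisons combined (adjusted p = 0.0644), and in FGF23-treated mice alone Ccnd1 was at -0.37 (adjusted p = 0.119) and Ccnd2 at -0.08 (adjusted p = 0.678). Ccnd1 was at 263, 241, 289 and 330 CPM in healthy vehicle mice and 163, 182, 214 and 256 CPM in anti-GBM vehicle mice. Its direction was opposite to that of Ccne1, Ccna2 and Ccnb1.

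Of 13 inhibitor genes of the cycle tested, 8 rose and 4 fell, beside 23.6% and 24.7% of all genes. Cdkn1a, encoding the CDK inhibitor p21, rose by 2.60 ± 0.26 (adjusted p = 3.8e-06), from 5.15, 4.04, 5.74 and 6.16 CPM in healthy vehicle mice to 20.3, 26.3, 62.1 and 62.5 CPM in anti-GBM vehicle mice and from 6.90, 5.24 and 5.92 CPM to 32, 18.2 and 31.5 CPM in mice given FGF23. The lowest diseased mouse was thus far above the highest healthy one. Cdkn1c (p57) rose by 1.07 ± 0.10 (adjusted p = 2.55e-06), whereas the pocket protein genes Rbl2 and Rbl1 fell by 0.50 and 0.26, the call of Rbl1 (adjusted p = 0.0158) being lost without NTS1, NTS2, NTS3, NTS5, NTS8 or NTS11 and in FGF23-treated mice alone (-0.11, adjusted p = 0.559). In the list of the quiescence complex and E2F repressors 5 of 11 rose and 3 fell, beside the same shares of all genes. The repressors E2f8 (2.60 ± 0.34) and E2f7 (1.97 ± 0.36), which are themselves transcribed in S phase, rose, and Lin52 and Lin54 of the MuvB core fell by 0.55 and 0.42, with Lin54 at -0.27 (adjusted p = 0.211) in FGF23-treated mice alone. E2f8 and E2f7 were low in healthy mice, at 0.209 to 0.623 and 0.209 to 0.61 CPM, and passed the filter through the anti-GBM mice.

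Daily FGF23 in healthy C57BL/6 mice (3 against 4) gave no member that passed the test. None of the 45 had an adjusted p below 0.05 in edgeR, none had an unadjusted p below 0.05, DESeq2 called 0, and 0% of all genes were called. The members were mostly lower: 3 of 45 had a positive log2 fold change, and the median was -0.42 against -0.01 for all genes. As the members vary together within groups, their signs are not separate observations, and this lean was not tested. Mki67 had a log2 fold change of -0.55 ± 0.50, and the smallest p values belonged to Nusap1, a spindle protein gene (-0.48 ± 0.29), Foxm1 (-0.71 ± 0.46) and Mcm7 (0.21 ± 0.14), all at an adjusted p of 0.996. In Ccna2, Cenpf, Foxm1, Hmmr and Mcm5 the 3 FGF23 mice lay below all 4 vehicle mice, which held for 5.01% of all genes. A single mouse, NTS10, was lowest of its group in 38 members, and without it the median was -0.20.

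In anti-GBM mice, 6 days of FGF23 (3 against 4) again gave no called member. edgeR's adjusted p was below 0.05 in 0 of 45 and the unadjusted p in 0 of 45, DESeq2 called 0, and 0.24% of all genes were called. Positive log2 fold changes were found in 2 of 45 members, and the median was -0.34, from -0.65 in the cyclin A/B and CDK1 set and -0.56 in the checkpoint set to -0.11 in the helicase set. The 3 smallest p values were those of Rrm2 (-0.65 ± 0.37, adjusted p = 0.466), Hmmr, a spindle protein gene (-0.80 ± 0.48, adjusted p = 0.486), and Cdk1 (-0.70 ± 0.44, adjusted p = 0.503), and Mki67 had -0.44 ± 0.45. In no member did all FGF23 mice lie below all vehicle mice, which 4.1% of all genes did. As the per-mouse values above show, the vehicle group holds both the lowest and the highest anti-GBM mouse, NTS5 and NTS7. Macrophage markers had a median log2 fold change of 0.16 and injured tubule markers of -0.08 in the same comparison, with 0 called in edgeR.

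The sign of this comparison rested on 1 library. Without NTS7, 31 of 45 members were positive, the median was 0.05, no member was called and none had an unadjusted p below 0.05. The members then ranged from -0.21 (Hmmr) to 0.60 (Ect2), with Mki67 at 0.27 ± 0.31, Rrm2 at -0.17 ± 0.30 and Cdk1 at -0.19 ± 0.38. Leaving out any other mouse kept the median between -0.56 and -0.21. Cdkn1a had a log2 fold change of -0.65 ± 0.34 (adjusted p = 0.43) and Ccnd1 of -0.07 ± 0.16 with all mice, neither of which was called.

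**Figure D4:**
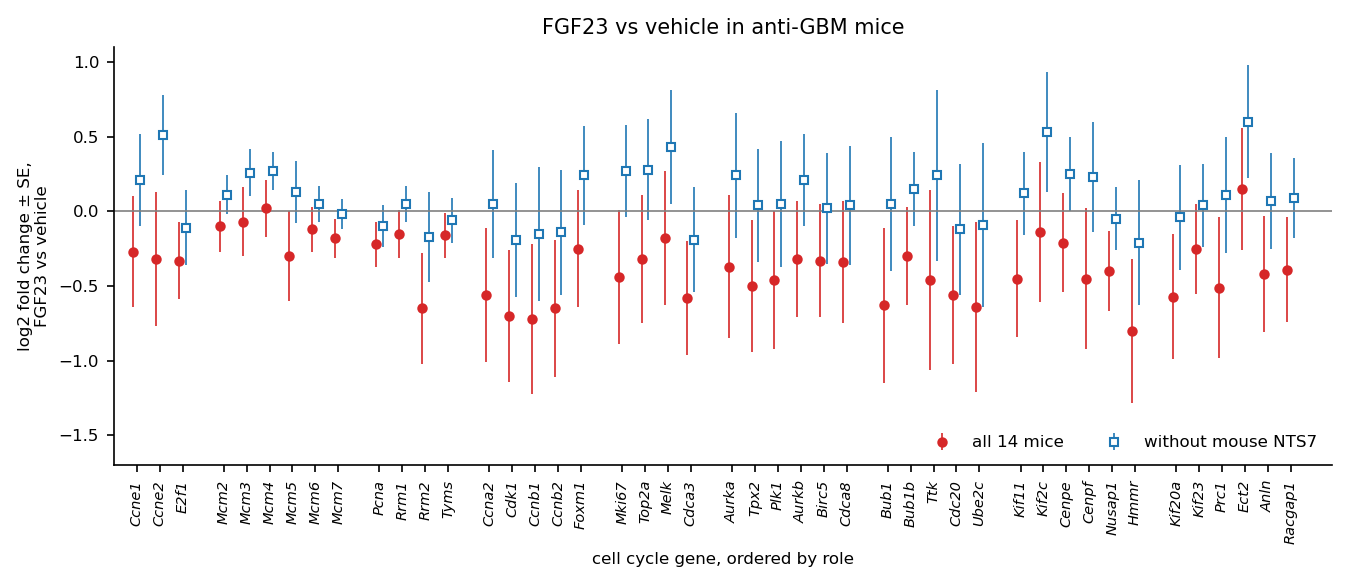
Log2 fold change of FGF23 against vehicle in anti-GBM mice with its standard error (y axis) for the 45 members (x axis), with all mice of the experiment (red circles) and without NTS7 (blue open squares). The medians are -0.34 and 0.05, and no member is called in either fit.

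The interaction of FGF23 with anti-GBM disease, which asks whether the FGF23 difference was unlike in diseased and healthy mice, was called in 0 of 45 members by edgeR and in 0 of the 40 to which DESeq2 gave an adjusted p, with 0 at an unadjusted p below 0.05 and 0.0315% of all genes called. The median was 0.02, and 24 of 45 members were positive. Mcm7 (-0.39 ± 0.19, adjusted p = 0.622), Ect2 (0.58 ± 0.59, adjusted p = 0.78) and Tyms (-0.17 ± 0.21, adjusted p = 0.827) had the smallest p values. The disease and FGF23 comparisons share their mice, so their values are not independent of one another.

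In Adriamycin nephropathy few cell cycle genes were called (8 against 8 mice). Of the 45 members 1 was called higher, the helicase subunit Mcm7 (0.32 ± 0.07, adjusted p = 0.0277), and 1 lower, Ect2 (-0.56 ± 0.12, adjusted p = 0.0237), while 0.968% of all genes were called higher and 0.968% lower. The median log2 fold change was 0.10, against -0.01 for all genes, and 32 of 45 members were positive. Among vehicle-treated mice alone and among FGF23-treated mice alone, edgeR called 0 members (0.119% and 0.462% of all genes were called higher). DESeq2 called 5 members in the whole comparison, 4 higher and 1 lower. Its share of all genes called is not given here, so this count is a description only.

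Mcm7 was at 18.3, 17.8, 16.7 and 18.4 CPM in healthy vehicle mice, 22.1, 21.8, 20 and 22.3 CPM in Adriamycin vehicle mice, 19.7, 20.5, 13.6 and 17.4 CPM in healthy FGF23 mice and 23.5, 23.4, 24.7 and 20.3 CPM in Adriamycin FGF23 mice. The vehicle groups were apart, and with FGF23 only the Adriamycin mouse at 20.3 CPM lay within the healthy range. The other helicase genes leaned the same way without being called in edgeR: Mcm3 (0.39 ± 0.11, adjusted p = 0.0886), Mcm5 (0.40 ± 0.11, adjusted p = 0.0898) and Mcm6 (0.52 ± 0.16, adjusted p = 0.123) had log2 fold changes near that of Mcm7, and the median of the 6 was 0.36. DESeq2 called Mcm5 (adjusted p = 0.0308) and Mcm6 (adjusted p = 0.0481). All 6 helicase genes and Ect2 made up the 7 members with an unadjusted p below 0.05. The share of all genes at this cut-off is not given here, so the count is a description only. Among vehicle-treated mice, Mcm2, Mcm3, Mcm7 and Pcna were higher in each Adriamycin mouse than in each healthy mouse (2.84% of all genes), with Pcna at 30.5 to 32.3 CPM against 27.9 to 30.5 CPM.

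Ect2, one of the members not called in anti-GBM disease, was at 14, 11.7, 12.6 and 12.2 CPM in healthy vehicle mice, 7.44, 10.4, 6.24 and 6.44 CPM in Adriamycin vehicle mice, 9.68, 11.6, 12.8 and 13 CPM in healthy FGF23 mice and 8.04, 8.84, 11.9 and 6.69 CPM in Adriamycin FGF23 mice. It was lower in every Adriamycin vehicle mouse than in any healthy vehicle mouse, and the FGF23 groups overlapped. Both calls were fragile: that of Ect2 was lost without Ad1, Ad5, Ad7, Ad8 or Ad14, and that of Mcm7 without Ad3, Ad5, Ad8, Ad14 or Ad15. Without any one mouse the number of called members ranged from 0 (without Ad5, Ad8 or Ad14) to 4 (without Ad13).

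Apart from Ect2, no mitotic member was called in Adriamycin mice. Mki67 was at 5.90, 2.10, 5.93 and 2.50 CPM in healthy vehicle mice, 4.73, 6.38, 3.83 and 5.96 CPM in Adriamycin vehicle mice, 5.29, 4.64, 4.91 and 3.67 CPM in healthy FGF23 mice and 3.22, 4.49, 6.14 and 5.59 CPM in Adriamycin FGF23 mice. The groups overlapped throughout (log2 fold change 0.20 ± 0.21, adjusted p = 0.711). Cdk1 (0.02 ± 0.17), Ccne1 (0.02) and E2f1 (0.02) were near 0, and Top2a stood at 0.15. In each set the extremes were small: from -0.13 (Ccnb1) to 0.12 (Ccna2) among cyclins, from -0.16 (Cdca8) to 0.22 (Aurka) among mitotic kinases, from -0.39 ± 0.24 (Ube2c) to 0.20 (Cdc20) among checkpoint genes, and from -0.13 (Hmmr) to 0.12 (Kif11) among spindle genes. Rrm2 (0.21) and Melk (0.21) were highest in theirs, Pcna (0.08 ± 0.04) lowest among genes of DNA synthesis, Ccne2 (0.19) highest at S phase entry, Mcm4 (0.18 ± 0.07) lowest among helicase genes, and Anln (0.26) highest in cytokinesis. None of these was called.

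Inhibitor genes outside the member list gave larger differences. Cdkn1a was at 4.87, 6.44, 5 and 4.83 CPM in healthy vehicle mice, 12.2, 12.2, 12.1 and 12.5 CPM in Adriamycin vehicle mice, 7.77, 5.39, 7.50 and 7.58 CPM in healthy FGF23 mice and 14.2, 18.7, 14.4 and 11.8 CPM in Adriamycin FGF23 mice. It rose by 1.14 ± 0.10 (adjusted p = 3.01e-05) with no overlap, as did Cdkn1c by 0.51 ± 0.07 (adjusted p = 0.000821). These were the 2 called of 13 inhibitors, where 0.968% of all genes were called higher and 0.968% lower in this disease comparison. Of 37 further mitotic genes tested 0 were called in edgeR, and of 30 replication genes 3 rose, among them Mcm10 (0.45 ± 0.10, adjusted p = 0.0263) and Tk1, encoding thymidine kinase (0.46 ± 0.11, adjusted p = 0.0454). Ccnd1 rose by 0.30 ± 0.07 (adjusted p = 0.0291), with 0.54 in vehicle-treated and 0.07 (adjusted p = 0.808) in FGF23-treated mice alone, and Cdk6 fell by 0.22 ± 0.05 on the log2 scale (adjusted p = 0.0323), with -0.11 (adjusted p = 0.716) in vehicle-treated mice alone. Mcm10 and Tk1 were called in neither treatment arm alone. These 4 calls were lost with adjustment over 4 comparisons combined, and leaving out single mice lost that of Ccnd1 with Ad1, Ad3, Ad5, Ad8, Ad14, Ad15 or Ad16, that of Mcm10 with Ad1, Ad4, Ad5, Ad7, Ad11 or Ad14, that of Cdk6 with Ad1, Ad3, Ad4, Ad5, Ad7, Ad9, Ad12, Ad14 or Ad15, and that of Tk1 with all mice but Ad6 and Ad10. Injured tubule markers were not higher in Adriamycin mice (0 of 5 higher, 1 lower, Havcr1 at -0.98), and no macrophage marker was called, with a summed level of 146 to 206 CPM in healthy and 112 to 180 CPM in Adriamycin mice.

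A single injection of FGF23 gave no called member in the Adriamycin experiment (4 against 4 mice in each comparison). In healthy BALB/c mice edgeR called 0 of 45 and 0% of all genes, DESeq2 called 0 of the 16 members to which it gave an adjusted p, and 1 member had an unadjusted p below 0.05, Cdk1 (0.51 ± 0.24, adjusted p = 0.745). Mcm5 (0.29 ± 0.16, adjusted p = 0.798), the checkpoint kinase gene Ttk (-0.60 ± 0.37, adjusted p = 0.819) and Mki67 (0.17 ± 0.30) followed, and the median was 0.04 with 29 members positive. In Adriamycin mice edgeR called 0 of 45 against 0.0375% of all genes, DESeq2 called 0, and 2 helicase genes had an unadjusted p below 0.05, Mcm5 (0.39 ± 0.16) and Mcm4 (0.23 ± 0.09), both at an adjusted p of 0.846. For neither comparison is the share of all genes at an unadjusted p below 0.05 given here, so these counts of members are descriptions only. Kif2c, a microtubule-depolymerizing kinesin gene, had 0.60 ± 0.33 (adjusted p = 0.929) and Mki67 had -0.10 ± 0.30. Aurka and Mcm4 were higher in each FGF23 mouse than in each vehicle mouse, as were 1.65% of all genes.

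The median over the members in Adriamycin mice was 0.22, with 34 positive. Mouse Ad15 was the highest of its group in 39 members, and without it the median was 0.01 with 24 positive. Its Mcm5 level was 19.4 CPM, against 10.4, 16.1 and 11.8 CPM in the other Adriamycin FGF23 mice and 10.9, 11.7, 9.47 and 12.0 CPM in the Adriamycin vehicle mice. The interaction was called in 0 members by edgeR and DESeq2 and in 0% of all genes, with 0 members at an unadjusted p below 0.05. Its median was 0.10, and Aurka (0.78 ± 0.37, adjusted p = 0.967), Kif2c (0.73 ± 0.47) and Ccne2 (0.56 ± 0.37, both at an adjusted p of 0.994) had the smallest p values.

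In PCKS from adenine nephropathy, 44 of the 45 members passed the filter on low counts, and none was called between FGF23 and vehicle (4 against 4). Ttk, with 6 to 23 reads in each slice library, was not tested. edgeR called 0 of 44 and 0% of all 15090 genes, 0 members had an unadjusted p below 0.05, and DESeq2 called 0. The median log2 fold change was -0.12, with 13 of 44 positive, and the medians of the sets ran from -0.26 for spindle genes and -0.23 for the helicase to 0.09 for checkpoint genes. Ube2c (0.57 ± 0.31), Rrm1 (-0.19 ± 0.11) and Ect2 (-0.38 ± 0.23) had the smallest p values, all at an adjusted p of 0.849.

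Mki67 was at 12.3, 18, 11.9 and 19.8 CPM in vehicle slices 1 to 4 and 23.9, 12.4, 13.7 and 13.4 CPM in FGF23 slices 1 to 4 (log2 fold change 0.02 ± 0.24). Cdk1 was at 2.99, 6.44, 2.91 and 7.64 CPM with vehicle and 7.73, 3.03, 4.33 and 4.15 CPM with FGF23. In both genes vehicle slices 2 and 4 and FGF23 slice 1 were high, and the groups overlapped. Pcna varied far less, at 59.8, 69.2, 60.6 and 69.9 CPM with vehicle and 65.5, 60.9, 65.4 and 61.1 CPM with FGF23. Over all 45 members, vehicle slice 2 had the highest level of its group in 24 and slice 4 in 21, slice 1 the lowest in 24 and slice 3 in 21, and FGF23 slice 1 the highest of its group in 31.

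The mean log2 CPM over the members was 2.06, 2.83, 2.10 and 2.80 in vehicle slices and 2.76, 2.24, 2.39 and 2.14 in FGF23 slices, so the vehicle libraries fell at 2 levels. The median pairwise correlation of deviations from the group means was 0.77 over 946 pairs of members. Summed macrophage markers were 480, 708, 483 and 656 CPM in vehicle slices and 430, 589, 456 and 599 CPM in FGF23 slices, high in vehicle slices 2 and 4 as the members were, but not in FGF23 slice 1. Single markers of other cell types also differed between these libraries. Umod, one of the thick limb markers, was at 3670, 1930, 2800 and 1380 CPM in vehicle slices and 4990, 3030, 2800 and 2390 CPM in FGF23 slices. Havcr1 was at 356, 811, 359 and 563 CPM in vehicle slices and 431, 356, 342 and 362 CPM in FGF23 slices. The part of any cell type was not tested. Without vehicle slice 2 the median over the members was 0.00, and without vehicle slice 4 it was -0.01. Cdkn1a was at 382 to 492 CPM with vehicle and 434 to 624 CPM with FGF23 and Ccnd1 at 234 to 262 CPM and 235 to 374 CPM (0.30 ± 0.15), neither of them called.

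Levels per kilobase used the bases of all annotated exons of a gene together, which can be longer than a single transcript. Different genes can therefore be compared only roughly on this scale. On it, Pcna was the most abundant member in all 10 groups, at 11 ± 0.679 CPM per kilobase (SD, n = 4) in healthy vehicle C57BL/6 mice, 15.3 ± 3.95 in anti-GBM vehicle mice, 12.2 ± 0.517 in healthy vehicle BALB/c mice and 27 ± 2.27 in vehicle slices. Ttk was the least abundant in 8 of the 10 groups, at 0.0986 ± 0.0172 CPM per kilobase in healthy vehicle C57BL/6 mice. Mki67 stood at 0.816 ± 0.168, 3.37 ± 2.68, 0.409 ± 0.208 and 1.54 ± 0.397 CPM per kilobase in those 4 groups. Mcm6 was set apart by experiment: it ranked 2nd of the 45 in healthy vehicle C57BL/6 mice (5.57 ± 0.589) and 13th in healthy vehicle BALB/c mice (1.02 ± 0.238), while its partner Mcm7 ranked 3rd in both (3.86 ± 0.334 and 4.02 ± 0.172). Nusap1 (1.38 ± 0.249 and 0.281 ± 0.104) was also far lower in the BALB/c mice. The strain, sex and experiment cannot be told apart here, and no test was made between experiments.

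Low counts and shared exons limit a few members. Ttk had 2 to 13 reads per library in healthy C57BL/6 mice and 4 to 14 in the Adriamycin experiment, Bub1 had 3 to 15 and 2 to 13, and Melk had 6 to 19 and 1 to 19, so that small differences in these genes were not detectable at this depth. In the annotation used here (GENCODE M21), 5 members share over 10% of their exon bases with a gene of the other strand: Kif20a (29.3%, with Cdc23), Ube2c (22.8%, with Tnnc2), Ccne2 (17.4%, with Ints8), Ccna2 (12.5%, with Exosc9) and Prc1 (11.1%, with Rccd1). The libraries were stranded, but whether the counting used the strand is not given in the sources used here, so reads of these pairs may not be told apart.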

How the data were processed

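RNA was extracted from a fragment of the renal pars intermedia or from slices, and stranded mRNA libraries were sequenced. Per the labels and methods, the authors made FASTQ files with bcl2fastq 2.20.0, aligned them with STAR 2.7.9a to a mouse genome with Ensembl 102 annotation and counted reads per gene with featureCounts 1.5.1; multimapping and strand settings are not given in the sources used here. The deposited values were raw counts for 55487 genes in 38 libraries, with no pooling, of which 55141 gene IDs had a symbol. Each experiment was fitted separately, all its groups in 1 model, with edgeR 4.0.16 (R 4.3.3, limma 3.58.1): TMM scaling, filterByExpr with a minimum count of 10, the quasi-likelihood test, and Benjamini-Hochberg adjustment within each of 9 comparisons over 15859, 16020 or 15090 genes. The disease comparison averaged the differences in vehicle-treated and FGF23-treated mice. The authors' own analysis used DESeq2, which is an alternative here (1.42.0). CPM values are TMM-scaled counts, their mean logs used a prior count of 2, and the model was tested on simulated data.

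Columns were tied to groups by their names; one column written as 14_NTS4 was taken as anti-GBM FGF23 mouse NTS14, as the study's own table gives it. Whole-kidney libraries came from separate mice, and the study calls the slice samples biologically independent without giving their mice. No 2 libraries of a group agreed within counting noise (smallest chi-square per degree of freedom 2.02 over 54 pairs). The members, roles, 101 other cell cycle genes in 5 lists and 65 marker genes in 14 lists were chosen with earlier results of these data known. Genes were named by a fixed rule: 8 index members throughout, the called members with the 3 smallest p values in each direction per disease comparison, the 3 smallest p values per FGF23 comparison, the extremes of each role, and the 2 called genes of smallest p in each direction per other list, with Cdkn1a and Ccnd1; the values of 1 gene that the rule names are not reported here. The other members were added to describe all 45. Promoters were read from a RefSeq table on GRCm38 and gene positions from GENCODE M21, by symbol.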

Additional observations from a re-analysis of the deposited data

Results flagged for a closer look

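In 9 of 128 checks (16 quantities in 8 groups of 4 libraries) 1 library stood apart from the other 3 of its group by Dixon's criterion at the 95% level, which chance alone gives in about 1 of 20. Among FGF23 slices, 1FRNA had 23.9 CPM of Mki67 against 12.4 to 13.7 CPM in the others and 10.6 CPM of E2f1 against 7.32 to 7.7 CPM. The slice 3FRNA had 4.85 CPM of Ect2 against 3.80 to 3.91 CPM, and 4FRNA had 50.4 CPM of Mcm7 against 47.7 to 47.8 CPM. Among vehicle slices, 4VRNA had 262 CPM of Ccnd1 against 234 to 238 CPM. In healthy BALB/c mice given FGF23, Ad12 had 0.471 CPM of Aurkb against 0.753 to 0.811 CPM, Ad11 had 0.593 CPM of Ccne1 against 0.895 to 0.911 CPM, and Ad10 had 5.39 CPM of Cdkn1a against 7.50 to 7.77 CPM. In healthy BALB/c mice given vehicle, Ad2 had 6.44 CPM of Cdkn1a against 4.83 to 5 CPM. Groups of 3 mice were not checked, and no cause of these values was tested.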

How the results depend on the processing

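Leaving out each library in turn, another scaling (RLE), no filter or at least 10 counts in every library, robust dispersion, DESeq2, a required fold, adjustment over 4 comparisons combined and single treatment arms were tried. In anti-GBM disease the number of members called, 41, was 30 to 42 under those settings and 39 to 43 without 1 library. In Adriamycin disease the number, 2, was 5 with DESeq2, 0 with a log2 fold change above 1 and 0 with combined adjustment. It was 0 in vehicle-treated and 0 in FGF23-treated mice alone, and 0 to 4 without 1 library. The cause of these differences was not tested. Apart from the single treatment arms, the shares of all genes called under these settings are not given here, so these counts are descriptions only. Every FGF23 and interaction comparison kept 0 called members under each setting run, but DESeq2 gave an adjusted p to only 16 members in healthy BALB/c mice.

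Some directions of single genes turned. In vehicle-treated mice alone, Ect2 was at 0.00 in anti-GBM disease, and in Adriamycin disease Aurka was at -0.17, Ccna2 at -0.02, Ccne1 at -0.10, Ccne2 at -0.09 and E2f1 at -0.05. In FGF23-treated mice alone, Adriamycin disease gave -0.06 for Cdk1, 0.00 for Hmmr and -0.06 for Kif11. Without 1 library, Adriamycin disease spanned -0.01 to 0.26 for Ccna2, -0.35 to 0.00 for Ccnb1, -0.04 to 0.11 for Ccne1, -0.11 to 0.09 for Cdk1, -0.12 to 0.07 for E2f1, -0.26 to 0.02 for Hmmr and -0.03 to 0.20 for Kif11. For FGF23, Mki67 spanned -0.75 to 0.27 in anti-GBM mice, -0.21 to 0.82 in their interaction, -0.04 to 0.41 in healthy BALB/c mice and -0.24 to 0.05 in Adriamycin mice. In slices the spans were -0.35 to 0.03 for Ccnb1, -0.26 to 0.16 for Ccne1, -0.40 to 0.20 for Cdk1, -0.08 to 0.14 for E2f1, -0.24 to 0.17 for Mki67 and -0.07 to 0.01 for Pcna. None of these genes was called in those comparisons.

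No paired analysis was possible in the whole-kidney experiments because their columns carry mouse numbers and not the replicate numbers of the labels. In slices, the correlations of same-numbered samples were 0.11, 0.11, -0.10 and 0.11, and 3 of 4 vehicle slices correlated best with their own number, so the numbers were not taken as pairs, which required every pair above 0.1; with the replicate block 0 members were called and their median was -0.11.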
